A study of Homo sapiens with 8 samples.

Results

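The genes described are cadherins, the calcium-dependent adhesion receptors of epithelial junctions, with the catenins and desmosomal proteins that tie them to the cytoskeleton. The set was chosen by name, with earlier results of these data known. It has 10 members among the 58735 genes of the count table: CDH1, CDH2, CDH3 and CDH17 among cadherins, CTNNA1, CTNNA2, CTNND1 and JUP among catenins, and DSP and DSG2 of the desmosome. RNA came from SW480, an established human colon cancer cell line whose APC tumour suppressor is truncated. In 4 libraries the cells stably overexpressed SPOCK1, a secreted proteoglycan of the extracellular matrix, with a FLAG tag, and in 4 control libraries they carried the vector. Both groups had been infected with lentivirus and selected with puromycin, and the protocol names no clone picking. The number of infections and of cultures behind each group is not stated. The p-values therefore set group differences only against the variation between these libraries, which may be purely technical. Effects of SPOCK1 and chance differences between the 2 selected cell populations cannot be told apart.

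Classical cadherins bind the same cadherin on the neighbouring cell. Their cytoplasmic tails hold p120 catenin (CTNND1) near the membrane and β-catenin or plakoglobin (JUP) further along, and these in turn hold α-catenin, which meets actin. E-cadherin (CDH1) is the main classical cadherin of normal colon epithelium. P-cadherin (CDH3) is often raised in colorectal tumours, and N-cadherin (CDH2) is typical of mesenchymal and neural cells. Desmosomes use desmogleins and desmocollins instead, joined through plakoglobin, plakophilins and desmoplakin (DSP) to keratin filaments. β-catenin bound to cadherin is held at the membrane, while free β-catenin acts in Wnt signalling, which the series title links to SPOCK1.

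SPOCK1 had 0 to 6 counts in the control libraries and 6719 to 9712 in the overexpressing ones, as the labels state. Total counts lay between 35643585 and 42812951 per library, and 15790 genes were tested. Of these 1.04% were called at an adjusted p under 0.05 (edgeR quasi-likelihood test), 0.247% as higher and 0.798% as lower with SPOCK1. The split between directions depended on a joint correction for base composition and exonic length: 23.6% of calls were higher as fitted here, and 58.9% with per-library offsets on both. The parts of the 2 in this shift were not tested. Slopes of expression on GC content ran from -0.11 to 0.11 on the log2 scale per 10 percentage points, with libraries 2 and 4 of each group above libraries 1 and 3. The epithelial identity of the line was visible in part. Of 11 colorectal epithelial markers 7 passed the filter on low counts, and their sum was 12911 to 15812 CPM in controls and 14498 to 16188 CPM with SPOCK1. KRT8 and KRT18 made up most of that sum, at 8281 and 4515 CPM in controls. None of the 7 passed the test, but those with smaller levels did not all follow the sum: log2 fold changes were -0.27 ± 0.09 for VIL1, without overlap of the groups, -0.87 ± 0.40 for GPA33 and -0.16 ± 0.09 for CDX2 (SE, adjusted p = 0.197, 0.357 and 0.452). These 3 were the only negative values, the other 4 being positive, and the median log2 fold change of the 7 was 0.0077. The part of these markers in the cadherin results was not tested. KRT19 and EPCAM were abundant too, while KRT20, CDX1, LGALS4 and CDH17 were near 0. Markers of other cells were low: 10 fibroblast markers summed to 4.41 to 5.48 CPM in controls and 4.50 to 5.22 CPM with SPOCK1, 6 endothelial ones to at most 1.44 CPM and 7 leukocyte ones to at most 1.56 CPM in any library, and 7 neural and melanocyte ones to at most 5.01 CPM. DCN, LUM, FAP, CDH5 and KDR had no count in any library.

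Of the 10 members 7 were expressed and 3 were near absent in both groups. Levels are compared between genes as CPM per kilobase of exonic length, CPM being the count of a gene relative to the TMM-scaled library size. In controls α-catenin stood at the top: CTNNA1 had 90.8 ± 3.21 CPM per kilobase (SD, n = 4). JUP followed with 42.2 ± 3.17, DSP with 28.5 ± 5.48 and CTNND1 with 23.3 ± 1.17. The adhesion receptors themselves were lower, CDH3 at 9.78 ± 0.33, DSG2 at 6.48 ± 1.36 and CDH1 at 2.88 ± 0.21 CPM per kilobase. DSP and CTNND1, neighbours in this order, overlapped over the 4 control libraries, and the other neighbours among the 7 did not. For comparison, β-catenin (CTNNB1), which is outside the set, had 82.7 ± 4.44 CPM per kilobase.

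**Figure D1:**
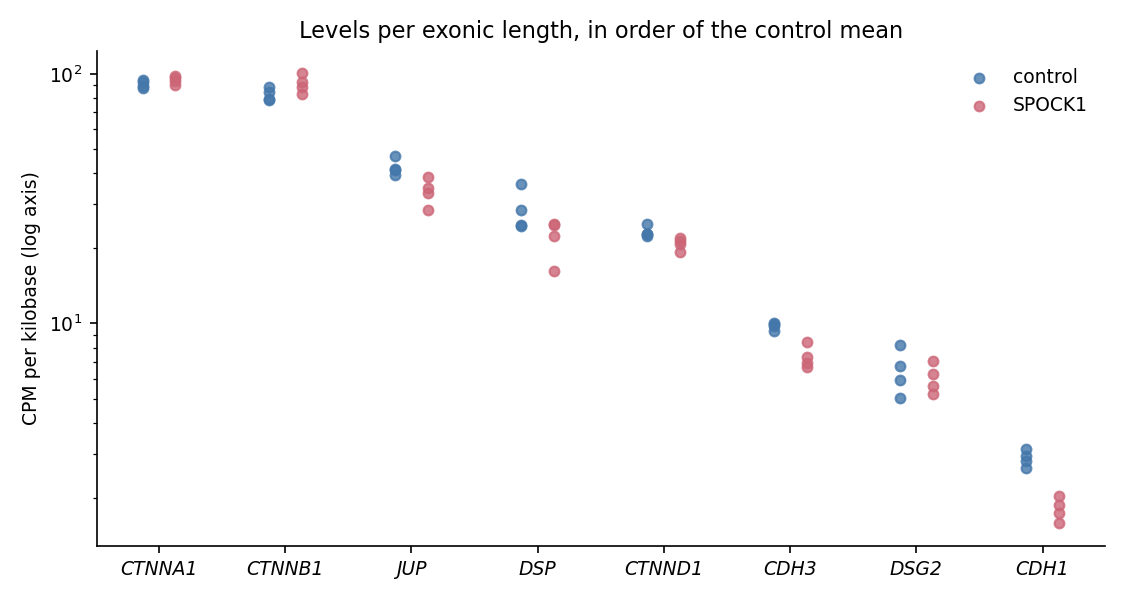
Levels of the 7 expressed members and of CTNNB1 in CPM per kilobase of exonic length, on a log axis, 1 point per library, control in blue and SPOCK1 in red, ordered by the control mean. CTNNA1 is highest, near 90.8 in controls, and CDH1 lowest, near 2.88, with CDH3 above CDH1 in every library.

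P-cadherin was the most abundant of the classical cadherin transcripts in the set. The ratio of CDH3 to CDH1, per kilobase, was 3.17, 3.58, 3.53 and 3.33 in control libraries 1 to 4. With SPOCK1 it was 4.22, 3.89, 4.01 and 4.13. All 4 SPOCK1 libraries lay above all 4 controls. The ratio combines members chosen with results of these data known and is given without a test. The sum of both transcripts was 12.7 ± 0.49 CPM per kilobase in controls and 9.16 ± 0.95 with SPOCK1 (SD, n = 4 each). Each transcript alone was lower in every SPOCK1 library than in any control, so the sum could not overlap either.

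No N-cadherin transcript to speak of was present. CDH2 (ENSG00000170558, chromosome 18, 27950966 to 28177446, minus strand) had 2 counts in control library 4 and 0 in each of the other 7 libraries. Pooled over the 4 SPOCK1 libraries, a count of 0 allows up to 0.0199 CPM. CDH17 (ENSG00000079112, chromosome 8, 94127171 to 94217303, minus strand), the liver-intestine cadherin that normal gut epithelium makes in large amounts, had 1 count in control library 2 and 1 in SPOCK1 library 3. CTNNA2 (ENSG00000066032, chromosome 2, 79185231 to 80648861, plus strand), the neural α-catenin, had 6 counts, all in control library 1, and 2 counts, both in SPOCK1 library 3. The pooled CTNNA2 ratio of SPOCK1 to control was 0.339, and its exact 95% interval, covering counting error only, ran from 0.0335 to 1.90. None of these 3 passed the filter on low counts, and no change in them was detectable at this depth.

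E-cadherin transcripts were lower in SPOCK1-overexpressing cells. CDH1 (ENSG00000039068, chromosome 16, 68737225 to 68835548, plus strand) had 19.4, 17.4, 16.3 and 18.1 CPM in control libraries 1 to 4. In SPOCK1 libraries 1 to 4 it had 9.79, 11.6, 10.7 and 12.6 CPM. The lowest control exceeded the highest SPOCK1 library. CDH1 fell by 37.2%, or -0.67 ± 0.11 on the log2 scale (SE, adjusted p = 0.00537). In bulk RNA, fewer cells that make a transcript and less of it per cell cannot be told apart. The call held with each of the 8 libraries left out in turn (adjusted p = 0.00474 to 0.0309), and offsets on GC content and length gave -0.66 ± 0.10 (SE, adjusted p = 7.42e-04). Within libraries 2 and 4 of each group it was -0.55 ± 0.13 (adjusted p = 0.0337) and within libraries 1 and 3 -0.80 ± 0.16 (adjusted p = 0.223, SE in both).

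P-cadherin transcripts were lower too, by less. CDH3 (ENSG00000062038, chromosome 16, 68636189 to 68722616, plus strand) had 62.1, 62.8, 58.1 and 60.9 CPM in control libraries 1 to 4 and 41.7, 45.6, 43.5 and 52.6 CPM in SPOCK1 libraries 1 to 4. The groups did not overlap, and SPOCK1 library 4 came nearest to the controls. CDH3 fell by 24.8%, or -0.41 ± 0.09 on the log2 scale (SE, adjusted p = 0.0293). This call was close to the threshold: it was lost without any 1 of the 4 control libraries or of SPOCK1 libraries 1 to 3 (adjusted p = 0.0502 to 0.119), and was kept without SPOCK1 library 4 (adjusted p = 0.00806). With the offsets the difference was -0.36 ± 0.06 (SE, adjusted p = 0.00453), -0.34 ± 0.10 within libraries 2 and 4 (adjusted p = 0.104) and -0.49 ± 0.12 within libraries 1 and 3 (adjusted p = 0.300).

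CDH3 and CDH1 are neighbours on chromosome 16, in the same orientation, with 14608 bases and no annotated gene wholly between them. Of 17 other tested genes within 500 kilobases of the pair, 0 were called by edgeR, against 1.04% of all tested genes. With so few genes, 0 calls are near that share. The median log2 fold change of the 17 was -0.02, with 7 positive and 10 negative values. An unadjusted p under 0.05 was found for 3 of them, against 13.7% of all tested genes. The 3 were HAS3, a hyaluronan synthase gene, at -0.43 ± 0.10 on the log2 scale (SE, adjusted p = 0.0546), UTP4, a ribosome biogenesis factor, at 0.21 ± 0.07 (SE, adjusted p = 0.209), and COG8, a Golgi tethering subunit, at -0.22 ± 0.11 (SE, adjusted p = 0.361). Limma-voom called 0 of the 17 and DESeq2 called 1, HAS3 (adjusted p = 0.00564). TANGO6 and ZFP90, on either side of the pair, had log2 fold changes of 0.03 and 0.04. These neighbours were examined after the values of the pair were known.

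Among the catenins, none of the 3 expressed members passed the test, and they did not share a direction. Plakoglobin, the catenin that serves both adherens junctions and desmosomes, showed the largest difference of the 3. JUP (ENSG00000173801, chromosome 17, 41754604 to 41786931, minus strand) had 206.0, 230.6, 194.0 and 203.0 CPM in control libraries 1 to 4 and 141.0, 171.9, 164.2 and 191.0 CPM in SPOCK1 libraries 1 to 4. The groups did not overlap, by a narrow margin between control library 3 and SPOCK1 library 4. On the log2 scale the difference was -0.32 ± 0.09 (SE, adjusted p = 0.120). It passed the test without SPOCK1 library 4 (-0.39 ± 0.09, adjusted p = 0.0415) and with no filter beyond 1 count (adjusted p = 0.0314). These settings called 237 and 399 genes over the whole table, against 165 as reported. The offsets gave -0.22 ± 0.06 (adjusted p = 0.0562). At 61.5% JUP had the highest GC content of the 10 members. The offsets act on GC content and length jointly, and the part of either in the JUP values was not tested.

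CTNND1 (ENSG00000198561, chromosome 11, 57753243 to 57819546, plus strand), which encodes the p120 catenin that keeps cadherins at the membrane, had 220.1, 200.7, 200.6 and 197.7 CPM in controls 1 to 4. With SPOCK1 it had 170.5, 183.0, 188.6 and 192.7 CPM. The groups did not overlap, yet the log2 fold change of -0.16 ± 0.07 did not pass the test (SE, adjusted p = 0.358). CTNNA1 (ENSG00000044115, chromosome 5, 138610967 to 138935034, plus strand), the epithelial α-catenin, had 832.0, 819.5, 785.5 and 771.6 CPM in controls 1 to 4 and 794.8, 864.6, 850.9 and 829.4 CPM in SPOCK1 libraries 1 to 4. These groups overlapped, at 0.06 ± 0.07 on the log2 scale (SE, adjusted p = 0.761). Its binding partner β-catenin, CTNNB1, stood at 986.5 ± 53.0 and 1087 ± 87.2 CPM (SD, n = 4 each), a difference of 0.14 ± 0.08 (SE, adjusted p = 0.448).

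**Figure D2:**
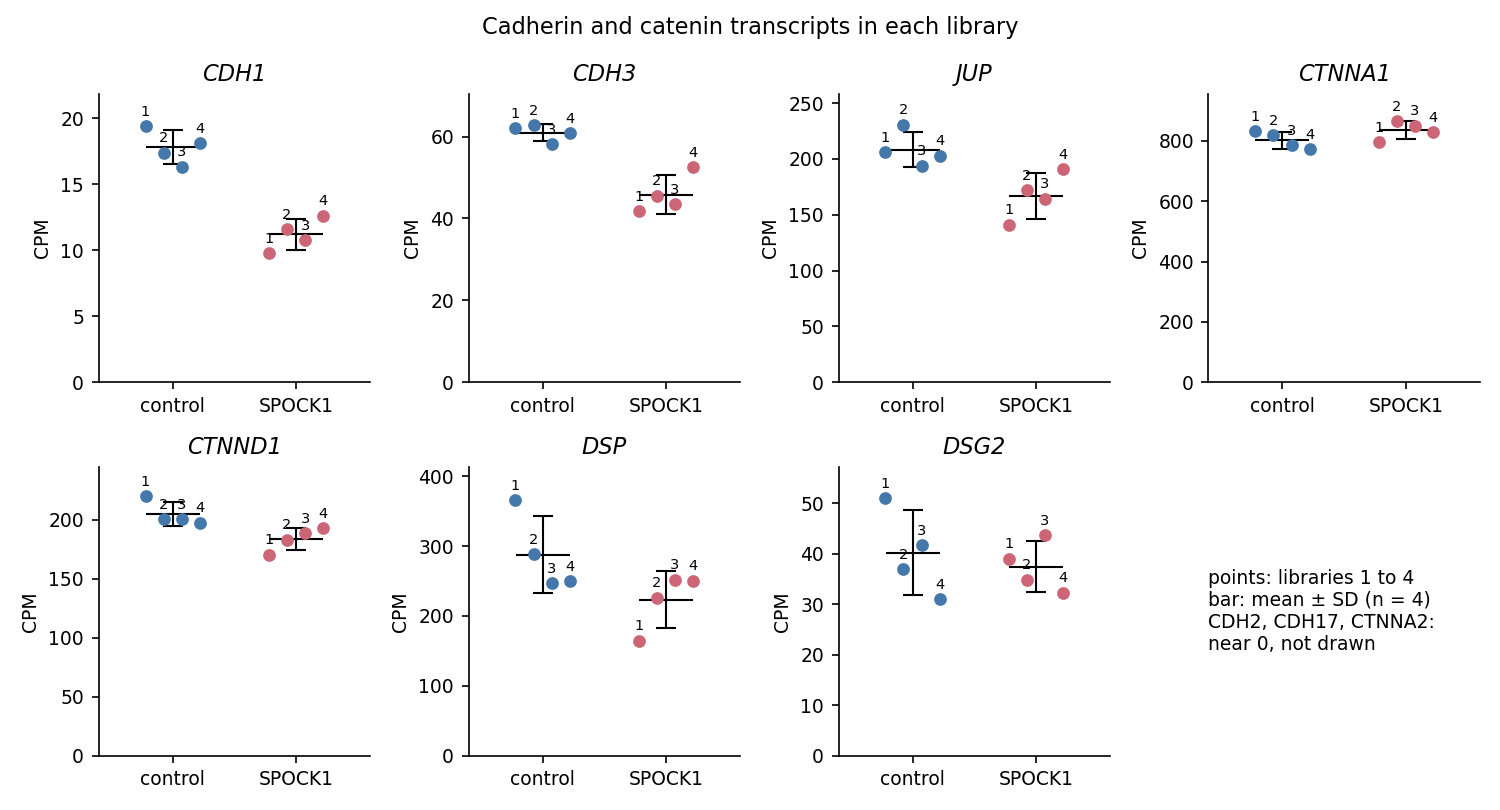
CPM of the 7 expressed members in each library, with an axis from 0 for each gene, points numbered by library and black bars for the mean ± SD (n = 4). CDH1, CDH3, JUP and CTNND1 are lower in all 4 SPOCK1 libraries than in any control, while CTNNA1, DSP and DSG2 overlap between the groups.

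The desmosomal members varied more between libraries of 1 group than the cadherins did. DSP (ENSG00000096696, chromosome 6, 7541575 to 7586717, plus strand) had 365.7, 288.2, 247.3 and 249.6 CPM in controls 1 to 4 and 164.3, 225.9, 251.7 and 250.4 CPM in SPOCK1 libraries 1 to 4. Control library 1 was high and SPOCK1 library 1 low, and the other libraries of both groups lay between 225.9 and 288.2 CPM. On the log2 scale the difference was -0.37 ± 0.13 (SE, adjusted p = 0.241), and it was -0.23 ± 0.12 without control library 1 and -0.25 ± 0.11 without SPOCK1 library 1 (adjusted p = 0.519 and 0.436). With no filter beyond 1 count, calls over the whole table numbered 399, against 165 as reported. DSP was among them, with a like difference and a smaller SE (-0.36 ± 0.09, adjusted p = 0.00568). Its exons span 10093 bases, the most among the members, and those same libraries stood at opposite ends of the slope of expression on exonic length, at 0.05 and -0.04 on the log2 scale per doubling. With the offsets DSP stood at -0.31 ± 0.11 (SE, adjusted p = 0.108). The part of the length slope in the DSP values was not tested further.

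DSG2 (ENSG00000046604, chromosome 18, 31498043 to 31549008, plus strand), the desmoglein of simple epithelia, had 50.9, 36.9, 41.7 and 31.0 CPM in controls 1 to 4. With SPOCK1 it had 39.0, 34.8, 43.7 and 32.2 CPM, inside the range of the controls. The difference was -0.10 ± 0.13 on the log2 scale (SE, adjusted p = 0.788), and without control library 1 the sign turned, at 0.04 ± 0.12 (SE, adjusted p = 0.944).

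**Figure D3:**
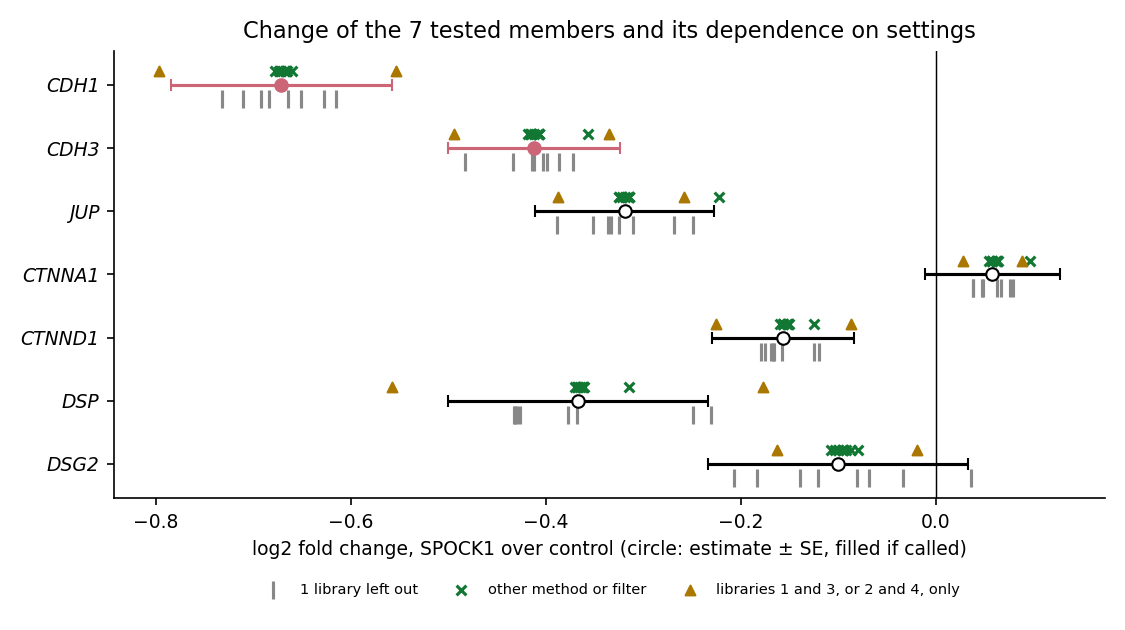
Log2 fold changes of the 7 tested members, SPOCK1 over control, as circles with SE, filled where called. Grey ticks are fits without 1 library, green crosses other methods or filters, and brown triangles fits on libraries 1 and 3 or 2 and 4 only. CDH1 stays between -0.80 and -0.55 throughout, whereas DSG2 crosses 0.

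In all, 2 of the 7 tested members fell and 0 rose, against 0.798% and 0.247% of all tested genes. The members were chosen with earlier results of these data known, so these and the following shares describe them and test nothing. In 4 of 7, CDH1, CDH3, JUP and CTNND1, all SPOCK1 libraries lay below all controls, against 4.8% of all tested genes. None lay wholly above, against 3.43%, and groups failed to overlap in either direction in 8.23% of all tested genes. Differences were negative for 6 of the 7, against 50.8%. The median log2 fold change of the 7 was -0.32, beside -0.0042 over all genes tested. DESeq2 and limma-voom called the same 2 members. At an unadjusted p under 0.05 edgeR gave 5 of the 7 lower and 0 higher, against 8.17% and 5.49% of all tested genes, or 13.7% in either direction. Overlapping genes in the deposited coordinates had few counts of their own: at most 10 in a library for the antisense gene AC126773.2 inside CDH3, at most 3 for DSG2-AS1 and 0 for the read-through TMX2-CTNND1. Reads of overlapping genes on opposite strands cannot be separated without a known strand setting. For genes on the same strand, TMX2-CTNND1 among them, strand could not separate shared reads, so few counts of their own do not settle their level.

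Promoter sequences were given for 6 of the 10 members in the RefSeq table (GRCh38.p14), CTNNA1, CTNNA2, CDH2, JUP, DSP and DSG2, and for CDH1, CDH3, CDH17 and CTNND1 there was no entry. The 250 bases before each annotated start were searched for CAGGTG and its reverse complement CACCTG, the E-box bound by SNAI and ZEB repressors of epithelial genes. The motif was present in 3 of the 14 windows, 1 each for JUP, DSP and DSG2, against 17.5% of all 35116 windows of this length, so nothing is read from its presence in the members. The looser CANNTG, which includes it, was in 61.8% of all windows. The 3 windows are shown to give the letters and places of the matches, 2 in each, with the motif in capitals, 5′ to 3′ on the strand of the gene.
JUP, chr17:41785977-41786226, minus strand: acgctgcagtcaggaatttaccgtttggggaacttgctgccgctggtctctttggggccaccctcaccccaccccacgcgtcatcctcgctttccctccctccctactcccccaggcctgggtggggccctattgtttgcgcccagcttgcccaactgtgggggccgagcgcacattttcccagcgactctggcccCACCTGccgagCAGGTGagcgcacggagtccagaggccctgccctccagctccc
DSP, chr6:7541421-7541670, plus strand: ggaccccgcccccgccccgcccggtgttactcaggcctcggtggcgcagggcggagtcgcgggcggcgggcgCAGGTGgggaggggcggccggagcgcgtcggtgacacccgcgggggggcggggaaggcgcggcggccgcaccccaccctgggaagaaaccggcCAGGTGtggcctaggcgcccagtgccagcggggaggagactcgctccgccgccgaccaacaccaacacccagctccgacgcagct
DSG2, chr18:31497927-31498176, plus strand: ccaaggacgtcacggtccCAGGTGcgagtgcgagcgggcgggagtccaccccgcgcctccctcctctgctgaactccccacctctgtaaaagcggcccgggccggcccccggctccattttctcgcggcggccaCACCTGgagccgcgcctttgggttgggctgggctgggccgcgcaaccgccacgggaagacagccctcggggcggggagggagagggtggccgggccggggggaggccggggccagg
Counted from the start, the matches begin at -54 and -43 in the JUP window, at -178 and -85 in the DSP window and at -232 and -116 in the DSG2 window. The other JUP window, further upstream, held no match. These matches are a description of the letters and no evidence of binding, and none of the 3 genes passed the test.

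The regulators that act on CDH1 were measured in the same fit, from a list of 26 repressors and activators. Of 18 tested, 1 fell and 0 rose, against 0.798% and 0.247% of all tested genes, and the median log2 fold change was -0.13. The fall was ELF3, an epithelial ETS factor, with 5.87, 6.51, 6.76 and 7.34 CPM in controls 1 to 4 and 3.80, 4.33, 3.83 and 4.42 CPM in SPOCK1 libraries 1 to 4. All SPOCK1 libraries were lower, with a fall by 38.2% (adjusted p = 0.0192), and the call was lost when control library 2, control library 4, SPOCK1 library 2 or SPOCK1 library 3 was left out (adjusted p = 0.0520 to 0.0803). At an unadjusted p under 0.05 there were 1 higher and 5 lower of 18, against 5.49% and 8.17% of all tested genes. These counts and the median pool repressors with activators, so they give no direction of regulation for CDH1.

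The SNAI, ZEB and TWIST repressors, named after their values were seen, were at 10.0 CPM or less in the control mean, and none that could be tested passed. SNAI1 stood at 10.0 ± 1.08 and 8.40 ± 0.76 CPM in controls and with SPOCK1, SNAI2 at 1.13 ± 0.50 and 1.70 ± 0.60, and ZEB1 at 2.82 ± 0.13 and 2.59 ± 0.69 (SD, n = 4 each, adjusted p = 0.389, 0.467 and 0.846). SNAI3 had 1.77 ± 0.28 and 0.96 ± 0.14 CPM, or -0.88 ± 0.25 on the log2 scale (SE, adjusted p = 0.112), which DESeq2 called (adjusted p = 0.0494). ZEB2 had 4 counts in all 8 libraries together and TWIST1 had 0.

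Among 12 further desmosomal genes 9 were tested, of which 1 fell and 0 rose, against 0.798% and 0.247% of all tested genes. Their median log2 fold change was -0.16. The fall was PKP1, a plakophilin that clusters desmosomal cadherins, with 9.84, 9.88, 10.6 and 9.77 CPM in controls 1 to 4 and 5.78, 6.50, 6.70 and 8.03 CPM in SPOCK1 libraries 1 to 4. It fell by 32.6% (adjusted p = 0.0414). The call held without SPOCK1 library 4 (adjusted p = 0.0167) and was lost without any other single library (adjusted p = 0.0828 to 0.143). PKP2 and PKP3, the more abundant plakophilins at 100.4 ± 8.50 and 274.8 ± 14.5 CPM in controls, had log2 fold changes of 0.07 ± 0.08 and 0.03 ± 0.08 (SE, adjusted p = 0.756 and 0.911). At an unadjusted p under 0.05, 2 of the 9 were lower and 0 higher, against 8.17% and 5.49% of all tested genes.

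No gene was called in the other 4 lists by edgeR, DESeq2 or limma-voom, where edgeR called 1.04% of all tested genes. In lists of this size an absence of calls is near that share, so nothing is read from it. Of 36 other cadherins 17 were tested, 3 of them with an unadjusted p under 0.05, against 13.7% of all tested genes. CDH15, muscle cadherin, had the smallest, at 0.207 ± 0.063 CPM in controls and 0.596 ± 0.104 with SPOCK1, or 1.50 ± 0.42 on the log2 scale (SE, adjusted p = 0.109). It rested on 6 to 26 counts per library. The other 2 were lower, CLSTN3 at -0.40 ± 0.13 and CELSR2 at -0.36 ± 0.15 on the log2 scale (SE, adjusted p = 0.160 and 0.319). The median of the list was -0.11. FAT1 and CLSTN1, a giant cadherin and a calsyntenin, named after their values were seen, were the highest of them in CPM, at 249.5 ± 43.1 and 107.1 ± 8.10 in controls, with log2 fold changes of -0.19 ± 0.13 and -0.09 ± 0.10 (SE, adjusted p = 0.569 and 0.747).

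The 6 tested genes of the catenin family and its partners had a median of 0.10, with 0 at an unadjusted p under 0.05. All 19 genes of nectins and actin linkage were tested, with a median of -0.10 and 5 at an unadjusted p under 0.05, all lower, against 8.17% of all tested genes. NECTIN1, an immunoglobulin-like adhesion receptor of the adherens junction, had the smallest p, at 149.1 ± 7.94 and 119.6 ± 17.2 CPM, or -0.32 ± 0.09 on the log2 scale (SE, adjusted p = 0.133). Of 24 genes of E-cadherin turnover and shedding 22 were tested, with a median of -0.03 and 2 at an unadjusted p under 0.05, against 13.7% of all tested genes. NCSTN, a subunit of the γ-secretase that cleaves shed cadherins, had the smallest p, at 46.1 ± 2.59 and 39.9 ± 2.90 CPM, or -0.21 ± 0.09 on the log2 scale (SE, adjusted p = 0.312).

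**Figure D4:**
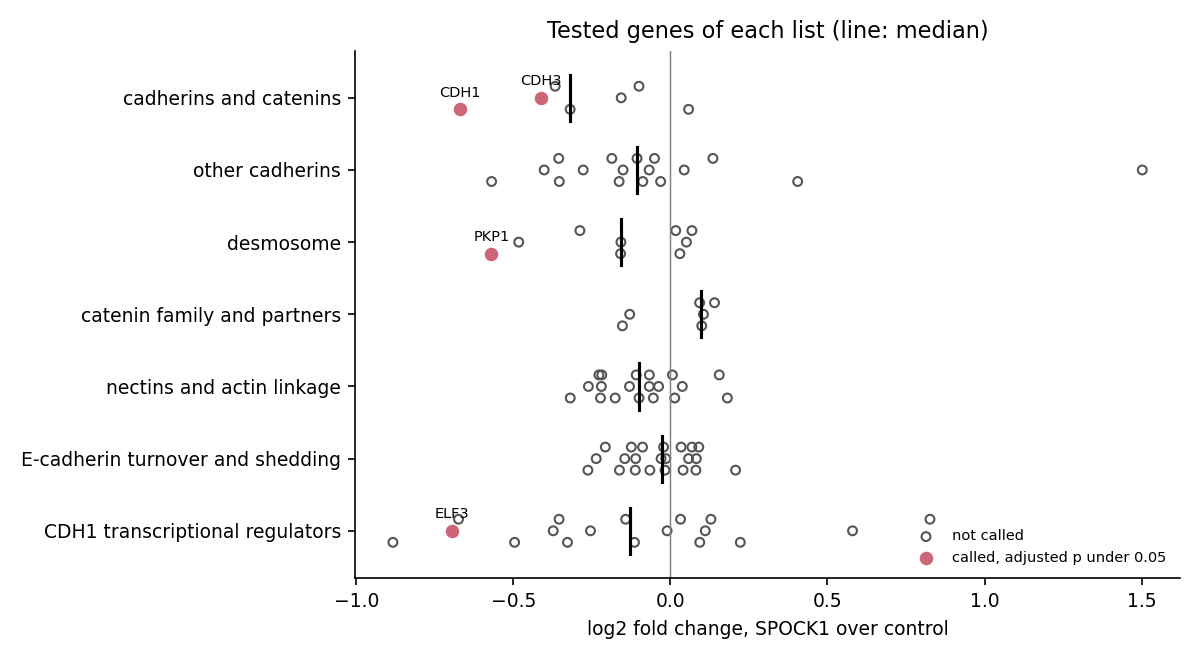
Log2 fold changes, SPOCK1 over control, of every tested gene in the set and in 6 lists of related genes, filled and named where called, with the median of each as a line. Calls are CDH1, CDH3, PKP1 and ELF3, all lower, and list medians lie between -0.32 for the cadherins and catenins and 0.10 for the further catenin family.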

How the data were processed

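RNA-seq counts of 8 SW480 libraries, 4 with vector control and 4 with SPOCK1 by their titles, were used as deposited: whole-number read counts per gene made by the authors, without normalization. The submitters' processing notes name CASAVA, HISAT2 2.0.5 and featureCounts 1.5.0-p3. Genome build, strand setting and handling of multi-mapped reads: not given in the sources used here. Positions of all 58735 genes equal those of GENCODE release 29 (GRCh38). Exonic lengths, another deposited value, served for levels per kilobase.

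Counts were compared in R 4.3.3 with edgeR 4.0.16: filterByExpr (minimum count 10, minimum total 15), TMM factors, the quasi-likelihood F test without covariates, and Benjamini-Hochberg adjustment over 15790 genes, with calls at 0.05. SE came from the F statistic. The fits were tested on simulated data. The exact 95% interval and the limit of 3 counts behind a 0 cover counting error only.

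Members and gene lists were chosen with earlier results of these data known. All 174 list symbols matched the deposited ones. The text names all members, SPOCK1, and from each list the called genes or else the smallest p. Any gene named beyond that was picked with its values in view. Alternatives were DESeq2 1.42.0, limma 3.58.1 (voom), RLE or upper-quartile factors, other filters (at least 1 count, or a mean of 1 CPM), the replicate block, library sizes without SPOCK1, GC content and length offsets by splines with 5 degrees of freedom, each library left out and, chosen after seeing the data, libraries 1 and 3 or 2 and 4 alone.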

Additional observations from a re-analysis of the deposited data

Results flagged for a closer look

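Single libraries stood apart from the other 3 of their group in 7 of 33 gene and group values examined. In 5 of them all counts of a near-absent member lie in 1 library, so that library stands apart by construction: CDH2 with 0.0487 CPM in control library 4, CDH17 with 0.027 CPM in control library 2 and 0.0231 CPM in SPOCK1 library 3, and CTNNA2 with 0.157 CPM in control library 1 and 0.0462 CPM in SPOCK1 library 3. Of the other 28 values 2 passed, where chance passes about 1 in 20. CTNND1 was higher in control library 1 than in the other controls, at 220 CPM. PKP1 was higher in control library 3 than in the other controls, at 10.6 CPM.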

How the results depend on the processing

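CDH1 kept its direction and its call in all fits but that on libraries 1 and 3 alone, at -0.80 on the log2 scale, and lay between -0.73 and -0.62 without 1 library. CDH3 kept its direction in every fit run but lost its call with the replicate block (-0.42, adjusted p = 0.0527) and within libraries 2 and 4 (-0.34) or 1 and 3 (-0.49), and lay between -0.48 and -0.37 without 1 library. With no filter beyond 1 count JUP (-0.32) and DSP (-0.36) were called, and JUP lay between -0.39 and -0.25 without 1 library. DSG2 lay between -0.21 and 0.036 without 1 library, the positive value being that without control library 1. Members called were 4 with no filter, 1 with the replicate block, 1 in libraries 2 and 4, 0 in libraries 1 and 3, and 1 to 3 without 1 library. Genes called over the whole table, 165 as reported, were 398 by DESeq2, 399 with no filter, 618 with GC content and length offsets, 8 in libraries 1 and 3, and 89 to 237 without 1 library. They numbered 96, 90 and 89 without control library 2, SPOCK1 library 2 and SPOCK1 library 3. Other cadherins and the nectin and actin list each had 1 call with no filter (CLSTN3 and NECTIN1, both lower) and 1 with the offsets (CDH15 and WTIP, both higher). Each had 0 to 1 without 1 library, CLSTN3 and NECTIN1 being called lower without SPOCK1 library 4. Calls in the desmosome list were 0 with the replicate block, 0 in either library set and 0 to 1 without 1 library. Calls among CDH1 regulators were 2 by DESeq2, both lower, 2 with the offsets (ELF3 lower and HMGA2 higher, at 0.31 with an adjusted p of 0.0219), 0 in either library set and 0 to 1 without 1 library. Same-numbered libraries of both groups correlated at -0.07, 0.03, 0.03 and 0.08 in their deviations from the group means. Control libraries 1, 2 and 3 correlated best with SPOCK1 libraries 3, 4 and 1, at 0.12, 0.11 and 0.16. Of the controls only library 4 correlated best with its own number, so the numbers were not taken as pairs. With that block PKP1 lost its call (adjusted p = 0.0682). The causes of these changes were not tested. Depth limits CDH2, CDH17 and CTNNA2, at 0 to 6 counts per library.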
